A study of Homo sapiens with 12 samples.

Results

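The immunoproteasome and the MHC class I loading machinery were described here through 10 genes: PSMB8, PSMB9 and PSMB10, PSME1 and PSME2, TAP1 and TAP2, TAPBP, B2M, and NLRC5. Each gene was taken from the probe sets annotated to it alone, and from the probe set with the highest mean over the arrays where there were several. All 10 were measured, among 18404 genes with such a probe set. The study followed NB4, a human acute promyelocytic leukemia cell line, before and after all-trans retinoic acid (ATRA), with and without knockdown of the long non-coding RNA HOTAIRM1. ATRA is a vitamin A derivative that drives NB4 cells towards granulocytes. The title names cell cycle progression during this maturation as the study's question, and RNA was measured on 12 Affymetrix arrays.

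The groups were knockdown cells after ATRA, knockdown cells untreated, control cells after ATRA and control cells untreated, with 3 arrays in each. Knockdown cells were NB4 lines carrying an anti-HOTAIRM1 shRNA in the pLKO.3G lentiviral vector, namely 2 replicates of shRNA1 and 1 line of shRNA2, a different construct. Control cells were 2 replicates of NB4 carrying a scrambled shRNA in the same vector and 1 wild-type NB4 array without a vector. ATRA was given at 0.5 uM for 96 h. The shRNA lines were sorted for GFP and grown as clones from single cells in soft agar, so a clone's own character and its shRNA cannot be told apart within a line. The labels call the scrambled and shRNA1 duplicates biological and say no more of their origin. The p-values thus measure the spread between these samples, which may be partly technical. Each duplicate is counted as a line below, though duplicates of 1 construct may share a clone. HOTAIRM1 had no probe set annotated to it alone, and the knockdown was not checked here. In bulk RNA, fewer cells of a type and less RNA per cell cannot be told apart.

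Values are log2 levels of one probe set and are not comparable between genes, so every comparison of levels below is of 1 gene across arrays. They spanned 2.67 to 14.63 over all probe sets, with array medians of 7.73 to 7.81. Of the promyelocyte markers, 7 of 8 were measured, and MPO, the granule peroxidase of promyelocytes, lay at 12.67 to 13.75 after ATRA and at 13.51 to 13.81 in untreated cells. Untreated scrambled replicate 2 was the highest untreated array for all 10 genes, as given below.

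The proteasome cuts cytosolic proteins into peptides. In immune cells, and in most cells after interferon, its catalytic subunits PSMB5, PSMB6 and PSMB7 are replaced by PSMB8, PSMB9 and PSMB10, which gives the immunoproteasome, and the PA28 cap made of PSME1 and PSME2 can bind its ends. Peptides are pumped into the endoplasmic reticulum by the transporter TAP1-TAP2, tapasin (TAPBP) holds the transporter beside empty class I molecules, and B2M is the light chain of the classical class I molecules. NLRC5 is a transactivator of class I genes, and interferon acts on many of these genes through the interferon-stimulated response element (ISRE), a pair of GAAA repeats bound by interferon regulatory factors.

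The ISRE pattern was shared by most members, and its stretches are shown because they are the feature the rule did not use. RefSeq promoter windows (GRCh38.p14) covering 250 bases upstream of the listed start that lies furthest upstream were available for 9 of the 10 genes, NLRC5 being the exception. The pattern, GAAA followed by any 2 bases and a further GAAA, searched on both strands, was present in 6 of the 9 windows, against 3.02% of 35116 windows of the same length. Each stretch of 30 bases below is written 5′ to 3′ on the gene's strand, and capitals mark the match or the run of overlapping matches. In TAP1 the match reads on the opposite strand, hence TTTC for GAAA.
PSMB10, chr16:67936852-67936881, minus strand: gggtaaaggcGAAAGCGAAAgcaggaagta
PSME2, chr14:24146619-24146648, minus strand: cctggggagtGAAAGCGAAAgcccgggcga
TAP1, chr6:32853816-32853845, minus strand: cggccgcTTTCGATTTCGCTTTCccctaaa
TAP2, chr6:32838778-32838807, minus strand: ctggggaagcGAAAGCGAAAgctgcccgag
TAPBP, chr6:33314079-33314108, minus strand: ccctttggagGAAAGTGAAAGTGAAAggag
B2M, chr15:44711366-44711395, plus strand: actctaaGAAAAGGAAACTGAAAacgggaa

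PSMB10, PSME2 and TAP2 held the identical match, and TAP1, TAPBP and B2M each held 2 overlapping matches. PSMB8, PSMB9 and PSME1 had none in this window. TAP1 and PSMB9 lie head to head, with 487 bases between their start sites, and the TAP1 matches lie 354 to 369 bases from the PSMB9 start, outside the PSMB9 window. The TAP1 window is shown whole because it faces both genes. It spans chr6:32853705-32853954 on the minus strand, and capitals mark the ISRE matches and 2 matches to the NF-kB pattern, GGGA followed by any 4 bases and CC, of which the first reads on the opposite strand.
TAP1 window: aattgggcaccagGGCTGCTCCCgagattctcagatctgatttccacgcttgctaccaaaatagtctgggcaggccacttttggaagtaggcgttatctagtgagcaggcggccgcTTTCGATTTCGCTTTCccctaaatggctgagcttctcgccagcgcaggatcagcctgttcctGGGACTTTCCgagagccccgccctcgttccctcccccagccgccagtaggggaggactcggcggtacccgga

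The other patterns were more common over all windows. The NF-kB pattern was in 4 of 9 member windows and 22.6% of all windows, CCAAT in 3 of 9 and 32%, and the CRE half-site TGACG in 4 of 9 and 21.2%. The interferon-gamma pattern TTCNNNGAA was in 0 of 9 and 6.57%. A match describes letters only, and the windows say nothing of binding in these cells.

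After ATRA, 8 of the 10 genes rose in knockdown cells and 6 of the 10 in control cells. Over all genes, 10.1% were called higher in knockdown cells and 15.2% in control cells. The calls are from limma at an adjusted p of 0.05 over all 18404 genes. None of the 10 fell, against 14.7% of all genes in knockdown cells and 20.9% in control cells. The median change of the 10 genes on the log2 scale was 0.97 in knockdown cells, where the median of all genes was -0.03, and 0.74 in control cells, where it was 0.05. PSMB9, TAP1, TAP2, TAPBP, B2M and PSME2 rose in both, PSMB8 and PSMB10 passed the test in knockdown cells alone, and PSME1 and NLRC5 passed in neither. The difference between the knockdown and control responses was itself called for 0 of the 10 genes, as given further on.

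PSMB9, also called LMP2, is the immunoproteasome subunit that takes the place of PSMB6, and it had the largest change of the 10 in both backgrounds. In control cells its lead over TAP2 (1.28 against 1.24) was within the error. Over the scrambled lines alone TAP2 was ahead (1.31 against 1.24). Its levels were 9.72, 10.21 and 10.24 in knockdown cells after ATRA, against 8.20, 8.46 and 7.67 untreated (shRNA1 replicate 1, shRNA1 replicate 2 and shRNA2, in that order throughout). Control cells had 10.71, 10.11 and 10.24 after ATRA, against 8.45, 9.88 and 8.88 untreated (scrambled replicate 1, scrambled replicate 2 and wild type, likewise). Treated and untreated arrays did not overlap in either background, though untreated scrambled replicate 2 lay within 0.22 of its treated partner. The change was 1.95 ± 0.32 in knockdown cells, or 3.86-fold (log2, SE; adjusted p = 0.00141). In control cells it was 1.28 ± 0.32, or 2.43-fold (adjusted p = 0.00979).

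PSMB8, or LMP7, takes the place of PSMB5. It had 9.49, 9.67 and 9.70 in knockdown cells after ATRA, against 8.92, 9.06 and 8.37 untreated, and these groups did not overlap. In control cells it had 9.99, 9.55 and 9.59 after ATRA, against 8.95, 9.71 and 9.37 untreated. Here the groups overlapped, because untreated scrambled replicate 2 lay above 2 of the 3 treated arrays. PSMB8 rose by 0.84 ± 0.21 in knockdown cells (adjusted p = 0.0121), and its change of 0.36 in control cells did not pass the test (adjusted p = 0.189).

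PSMB10, or MECL-1, takes the place of PSMB7 and gave the same picture. Its levels were 9.53, 9.69 and 9.64 in knockdown cells after ATRA, against 8.88, 8.90 and 8.52 untreated. They were 9.83, 9.54 and 9.55 in control cells after ATRA, against 8.92, 10.02 and 8.95 untreated. The control groups overlapped through the single value of 10.02, again that of untreated scrambled replicate 2, which was above every treated array. The rise was 0.86 ± 0.24 in knockdown cells (adjusted p = 0.0216), and the control change was 0.34 ± 0.24 (adjusted p = 0.284). The knockdown call was lost without untreated shRNA2 (adjusted p = 0.086), treated shRNA2 (0.0617) or treated shRNA1 replicate 2 (0.0669).

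**Figure D1:**
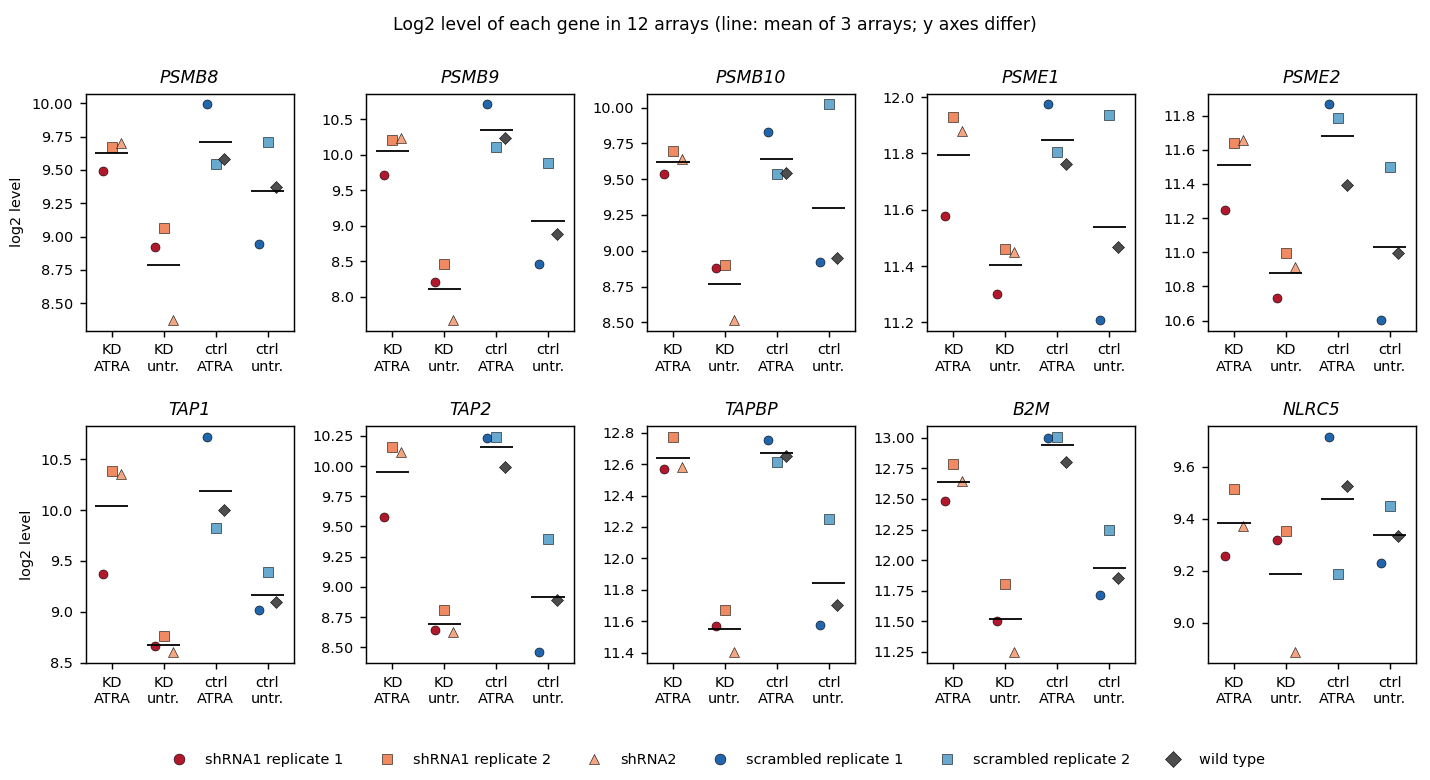
Log2 level (y axis) of each of the 10 genes on the 12 arrays, 1 panel per gene, with points for single arrays by line and a bar for the mean of 3 arrays (KD, knockdown; ctrl, control; untr., untreated; y axes differ). Treated arrays lie fully above untreated ones for 9 of the 10 genes in knockdown cells and for 5 in control cells. Untreated scrambled replicate 2 is the highest untreated array in all 10 panels.

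The PA28 cap genes moved less. PSME2 had 11.25, 11.64 and 11.66 in knockdown cells after ATRA, against 10.73, 10.99 and 10.91 untreated. It had 11.87, 11.79 and 11.39 in control cells after ATRA, against 10.60, 11.50 and 10.99 untreated. The knockdown groups were apart, and the control groups overlapped through untreated scrambled replicate 2. PSME2 rose by 0.63 ± 0.20 in knockdown cells (adjusted p = 0.0411) and by 0.65 ± 0.20 in control cells (adjusted p = 0.028). Its knockdown call was lost without any 1 of 5 knockdown arrays (all but treated shRNA1 replicate 1), untreated wild type or treated scrambled replicate 2, with adjusted p-values of 0.0502 to 0.13. Its control call was lost without any 1 of untreated wild type, untreated or treated scrambled replicate 1, or treated scrambled replicate 2, with adjusted p-values of 0.0789 to 0.0958.

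PSME1 had 11.58, 11.93 and 11.88 in knockdown cells after ATRA, against 11.30, 11.46 and 11.45 untreated. Control cells had 11.97, 11.81 and 11.76 after ATRA, against 11.21, 11.94 and 11.47 untreated. Every treated knockdown array was above every untreated one and the control groups overlapped. The changes were 0.39 ± 0.16 in knockdown cells (adjusted p = 0.1) and 0.31 ± 0.16 in control cells (adjusted p = 0.147), and neither passed.

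TAP1 and TAP2 are the subunits of the peptide transporter. TAP1 had 9.37, 10.38 and 10.36 in knockdown cells after ATRA, against 8.66, 8.76 and 8.60 untreated. Control cells had 10.72, 9.82 and 10.01 after ATRA, against 9.02, 9.39 and 9.10 untreated. The groups did not overlap, but treated shRNA1 replicate 1 was well below the other treated knockdown arrays, which lay close together, and the treated arrays of both backgrounds spread widely (SD of 0.574 in knockdown and 0.476 in control cells). TAP1 rose by 1.36 ± 0.27, or 2.57-fold, in knockdown cells (adjusted p = 0.00341) and by 1.02 ± 0.27, or 2.02-fold, in control cells (adjusted p = 0.0122).

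TAP2 had 9.58, 10.16 and 10.12 in knockdown cells after ATRA, against 8.64, 8.81 and 8.63 untreated. Its control levels were 10.23, 10.25 and 9.99 after ATRA, against 8.46, 9.40 and 8.89 untreated. All treated arrays were above all untreated arrays, across both backgrounds. TAP2 rose by 1.26 ± 0.21 in knockdown cells (2.39-fold, adjusted p = 0.00143) and by 1.24 ± 0.21 in control cells (2.36-fold, adjusted p = 0.000973). TAP2 had 2 further probe sets, whose changes were 0.96 and 0.79 in knockdown cells and 1.39 and 0.49 in control cells, all positive but of unequal size.

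Tapasin (TAPBP), which bridges the transporter and the class I molecule, had treated arrays that lay close together, with an SD of 0.116 in knockdown and 0.0741 in control cells. It had 12.57, 12.78 and 12.58 in knockdown cells after ATRA, against 11.57, 11.67 and 11.40 untreated. Control cells had 12.76, 12.61 and 12.65 after ATRA, against 11.58, 12.25 and 11.70 untreated. No treated array reached down to an untreated one. TAPBP rose by 1.09 ± 0.15 in knockdown cells (2.13-fold, adjusted p = 0.000562) and by 0.83 ± 0.15 in control cells (1.78-fold, adjusted p = 0.00136). Its 2 other probe sets changed by 1.13 and 1.84 in knockdown cells and by 0.99 and 1.36 in control cells.

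B2M, the class I light chain, had 12.49, 12.79 and 12.65 in knockdown cells after ATRA, against 11.50, 11.80 and 11.25 untreated. It had 13.00, 13.01 and 12.80 in control cells after ATRA, against 11.71, 12.25 and 11.85 untreated. Treated and untreated arrays were apart in both backgrounds. B2M rose by 1.13 ± 0.16 in knockdown cells (2.18-fold, adjusted p = 0.00064) and by 1.0 ± 0.16 in control cells (2.0-fold, adjusted p = 0.000658). TAP2, TAPBP and B2M were the members whose calls held in both backgrounds under all 20 alternative settings.

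NLRC5, the transactivator, had 9.26, 9.52 and 9.37 in knockdown cells after ATRA, against 9.32, 9.35 and 8.89 untreated. Control cells had 9.72, 9.19 and 9.53 after ATRA, against 9.23, 9.45 and 9.33 untreated. It was the only member whose treated and untreated arrays overlapped in both backgrounds. The changes were 0.20 ± 0.15 in knockdown cells (adjusted p = 0.409) and 0.14 ± 0.15 in control cells (adjusted p = 0.48).

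Counted without a model, treated and untreated arrays were fully apart, with the treated arrays higher, for 9 of the 10 genes in knockdown cells and for 5 of the 10 in control cells. The shares over all genes were 16.7% in knockdown cells and 25.2% in control cells. For 0 of the 10 were the treated arrays all lower, against 24.6% of all genes in knockdown cells and 23.4% in control cells. The 5 that were apart in control cells were PSMB9, TAP1, TAP2, TAPBP and B2M.

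**Figure D2:**
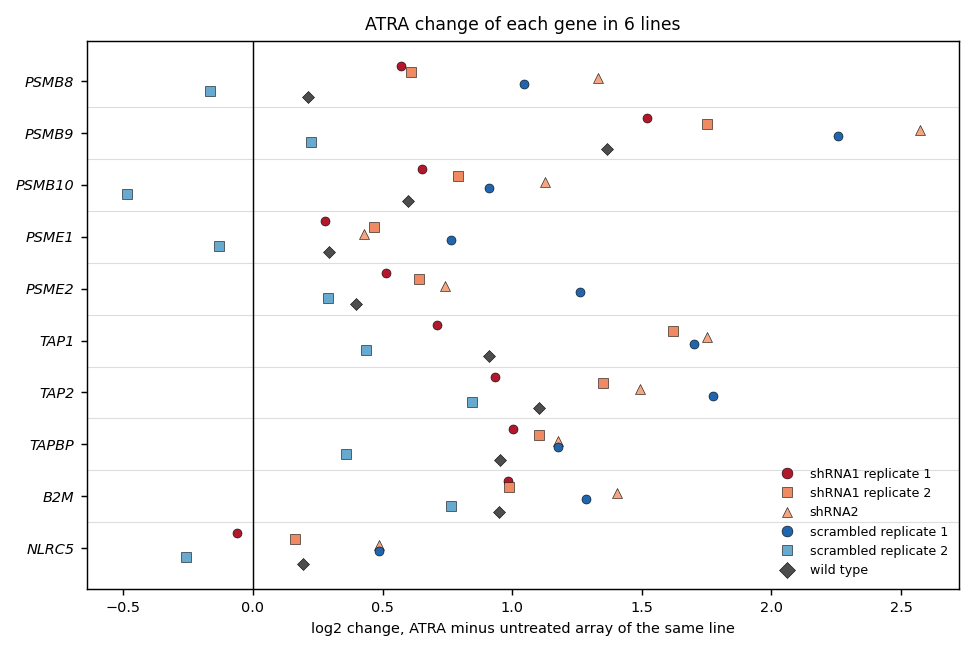
Change after ATRA (log2, treated minus untreated, x axis) of the 10 genes in each of the 6 lines, knockdown lines and control lines marked separately. Scrambled replicate 2 gives the smallest change for every gene, and the largest change is in shRNA2 for 6 genes and in scrambled replicate 1 for 4.

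Within single lines the median change of the 10 genes was 0.68 in shRNA1 replicate 1, 0.89 in shRNA1 replicate 2 and 1.25 in shRNA2, against 1.22 in scrambled replicate 1, 0.26 in scrambled replicate 2 and 0.75 in wild type. These pairings join scrambled and shRNA1 arrays by the number in their labels, and wild type and shRNA2, with 1 array per state, by name. All 10 genes were higher after ATRA in shRNA1 replicate 2, shRNA2, scrambled replicate 1 and wild type, 9 were higher in shRNA1 replicate 1, where NLRC5 was lower by a change of -0.06, and 6 were higher in scrambled replicate 2. In scrambled replicate 2, PSMB8, PSMB10, PSME1 and NLRC5 had changes of -0.17, -0.49, -0.13 and -0.26. Lines of one background thus differed from each other more than the backgrounds differed in their medians.

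The untreated array of scrambled replicate 2 was the highest untreated array for all 10 genes, where 22.5% of all genes were highest on it. The lowest untreated array was shRNA2 for 7 of the 10 (15.7% of all genes) and scrambled replicate 1 for the other 3. After ATRA, shRNA1 replicate 1 was lowest for 9 of the 10 (13.8% of all genes), for PSMB8, PSMB10 and TAPBP by a small margin, and scrambled replicate 1 highest for 7 (11.5%). Some markers also stood apart on untreated scrambled replicate 2. Of the 7 promyelocyte markers, 2 were highest there among untreated arrays, and their mean of 10.29 lay within the 9.76 to 10.37 of the others. MPO was lower there, at 13.51, against 13.70 to 13.81. CSF3R, the granulocyte colony-stimulating factor receptor, was at 10.92 there and at 8.74 to 9.54 on the other untreated arrays, and S100A9, a myeloid calcium-binding protein, was at 9.88 there and at 8.57 to 9.37 on the others.

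The B-lymphoid gene CD79A was at 10.91 on that array and at 7.87 to 8.57 on the other untreated arrays. Of the lymphoid markers, 5 of 7 measured were highest there among untreated arrays. For CD2 (6.89, against 6.71 to 6.85) and MS4A1 (5.72, against 5.27 to 5.69) the margin was small. The list's mean of 8.04, against 7.43 to 7.75, includes CD79A, which stood furthest apart. CD3D lay within the range of the others, and CD3E was lower there (6.19, against 6.34 to 6.48). Among the 7 monocyte and macrophage markers, 2 were highest there among untreated arrays, namely S100A9 and, by a small margin, CD163. The mean of these 7 was 7.24 there, against 7.0 to 7.17 on the other untreated arrays and 7.46 to 7.85 after ATRA. That mean includes S100A9, which stood furthest above the other untreated arrays. MRC1 and VCAN were lower there than on every other untreated array (VCAN 5.44, against 5.54 to 5.85). CD14 did not stand out (7.25, against 7.12 to 7.37). What part these have in the levels of the 10 genes was not tested.

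Some markers were also called after ATRA, when 10.1% of all genes were called higher in knockdown and 15.2% in control cells. Of the 7 monocyte and macrophage markers measured, 3 rose in knockdown and 5 in control cells. Of the lymphoid markers 1 of 7 rose in each background, of the dendritic cell markers 1 of 8 in each, and of the erythroid markers 0 of 4 in knockdown and 1 of 4 in control cells, and 0 fell. In lists this small, the lymphoid, dendritic cell and erythroid counts cannot be told from the shares over all genes. Among 7 promyelocyte markers in knockdown cells, CSF3R rose by 1.30 (adjusted p = 0.0289) and CTSG, a granule protease, fell by 2.45 (adjusted p = 0.00356), and 0 passed in control cells. Their part in the members' changes was not tested.

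Without the untreated array of scrambled replicate 2, 9 of the 10 genes were called higher in knockdown cells and 8 in control cells. Over all genes, 2040 were called higher in knockdown and 2428 in control cells, against 1854 and 2800 with all arrays. That array was the highest untreated one for all 10 genes. Leaving it out therefore raises every control change by construction, and the larger control changes are no separate result. In this setting PSME1 passed in knockdown cells (0.39, adjusted p = 0.0218) and in control cells (0.51, adjusted p = 0.00869), and PSMB10 in control cells (0.70, adjusted p = 0.00165). PSMB8 in control cells reached 0.55 without passing (adjusted p = 0.062). Leaving out scrambled replicate 2 in both states, an alternative chosen after seeing the data, also gave 9 in knockdown and 8 in control cells. Over all genes it gave 2104 and 2138 called higher. With the scrambled and shRNA1 arrays alone, 4 of the 10 were called in knockdown cells (PSMB9, TAP2, TAPBP and B2M) and 3 in control cells (TAP2, TAPBP and B2M).

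Knockdown and control cells were then compared within each state, which asks whether loss of HOTAIRM1 went with a different level of these genes. Before ATRA, 0 of the 10 genes were called (limma), as were 0 of all 18404 genes, the background share being 0%. All 10 had lower means in knockdown cells, by a median of -0.36, while 48.8% of all genes were lower there. The unadjusted p was under 0.05 for 4 of the 10, namely PSMB8, PSMB9, PSMB10 and B2M, and for 727 of 18404 genes. The difference was -0.96 ± 0.32 for PSMB9, -0.56 ± 0.21 for PSMB8, -0.53 ± 0.24 for PSMB10 and -0.42 ± 0.16 for B2M, each with an adjusted p of 0.999. PSMB10 and TAP1 were the 2 of 10 whose untreated knockdown arrays all lay below the untreated control arrays, as did 4.04% of all genes, and for 0 of the 10 did they all lie above, as 3.75% of all genes did. Without untreated scrambled replicate 2, 7 of the 10 were lower, the PSMB9 difference shrank to -0.56 and the PSMB10 difference to -0.17, and PSME1, PSME2 and TAP2 turned to 0.06, 0.08 and 0.02.

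After ATRA, 0 of the 10 genes were called between knockdown and control cells (limma), against 0.0543% of all genes called higher and 0.00543% called lower. None of the 10 had an unadjusted p under 0.05, which 5171 genes had. The 10 differences were all negative, from -0.30 for PSMB9 and B2M to -0.01 for PSMB10, with a median of -0.12, and 54.7% of all genes were negative. B2M, with 12.49, 12.79 and 12.65 in treated knockdown cells against 13.00, 13.01 and 12.80 in treated control cells, was the 1 of 10 whose groups did not overlap, against 20.7% of all genes lower and 14.3% higher without overlap (adjusted p = 0.239). For 5 of the others (PSMB8, PSMB10, PSME1, TAPBP and NLRC5) the difference was at most 0.10 in size, within the spread between replicates.

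The group means had one order for all 10 genes, from control after ATRA to knockdown after ATRA, control untreated and knockdown untreated, high to low. That order held for 11.7% of all genes. The neighbouring steps between control and knockdown at either state did not pass the test for any of the 10, the middle step was not tested, and the order held for 7 of the 10 and 10.2% of all genes without untreated scrambled replicate 2.

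The difference between the responses, knockdown minus control, was called for 0 of the 10 genes and for 0% of all genes (limma), and the unadjusted p was under 0.05 for 0 of the 10 and for 2815 genes. It was positive for 9 of the 10, with a median of 0.20 against -0.01 over all genes. It was largest for PSMB9 (0.67 ± 0.46, adjusted p = 0.468), PSMB10 (0.52 ± 0.34, adjusted p = 0.45) and PSMB8 (0.47 ± 0.30, adjusted p = 0.43), and -0.02 for PSME2. Without untreated scrambled replicate 2 these became 0.26, 0.15, 0.29 and -0.25. The differences for the 3 catalytic subunits did not pass this test, whose error is the spread between arrays within a group.

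The constitutive subunits, which the immune subunits replace, went the other way. PSMB5, PSMB6 and PSMB7 fell after ATRA in both backgrounds, by changes of -0.57, -0.53 and -0.71 in knockdown cells (adjusted p = 0.0131, 0.00957 and 0.00699) and of -0.66, -0.48 and -0.77 in control cells (adjusted p = 0.00454, 0.0125 and 0.0031). PSME3, which forms the nuclear PA28 cap, changed by -0.48 in knockdown cells (adjusted p = 0.0522) and fell by 0.53 in control cells (adjusted p = 0.0267). Of the 11 constitutive counterparts and proteasome assembly genes measured, 7 fell in knockdown cells and 10 in control cells, and 0 rose. Their median changes were -0.46 and -0.53. PSMG1, an assembly chaperone, fell by 0.95 in knockdown cells and by 0.99 in control cells, and PSMG3, another, changed by -0.38 in knockdown cells (adjusted p = 0.249) and fell by 0.82 in control cells. The control count was 4 without the untreated wild-type array and 5 without the treated one.

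The change of each immune subunit was also set against that of its counterpart within each line. The change of PSMB9 minus that of PSMB6 averaged 2.48 ± 0.56 in knockdown lines and 1.76 ± 1.15 in control lines (log2, SD, n = 3 each). For PSMB10 minus PSMB7 it was 1.56 ± 0.57 in knockdown lines and 1.11 ± 0.85 in control lines, and for PSMB8 minus PSMB5 it was 1.41 ± 0.69 and 1.02 ± 0.71. The cap genes were both set against PSME3 of the nuclear cap. PSME2 minus PSME3 gave 1.12 ± 0.18 in knockdown and 1.18 ± 0.55 in control lines. For PSME1 minus PSME3 the values were 0.88 ± 0.15 and 0.84 ± 0.68. All 5 differences were positive in 6 of 6 lines and smallest in scrambled replicate 2, where PSMB10 minus PSMB7 was 0.13. In that line PSMB8, PSMB10 and PSME1 themselves changed by -0.17, -0.49 and -0.13, and the genes set against them fell more. PSMB5, PSMB6, PSMB7 and PSME3 had negative changes in every line. An unchanged gene would thus also give a positive difference in every line. The 5 values are differences of changes, not levels of one gene against another.

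**Figure D3:**
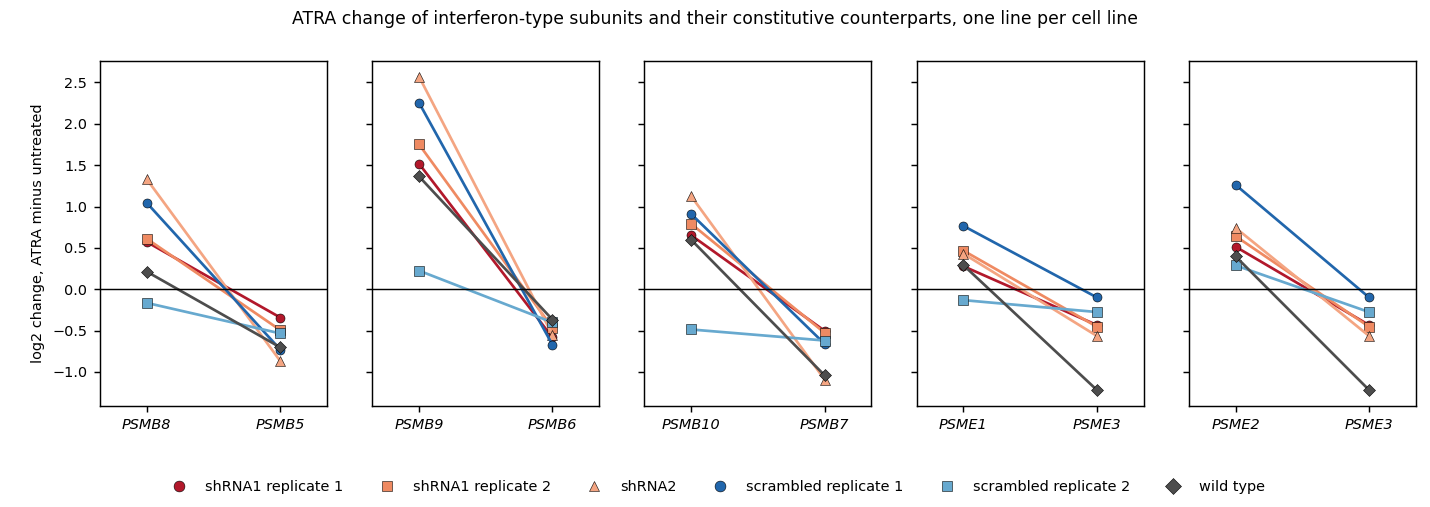
Change after ATRA (log2, treated minus untreated) of each immune subunit beside its constitutive counterpart, and of each cap gene beside PSME3 of the nuclear cap. There is 1 point per line, and the points of a line are joined. The members lie above the gene beside them in 6 of 6 lines for all 5 pairs, and both cap gene pairs share PSME3. The changes of PSMB5, PSMB6, PSMB7 and PSME3 are below 0 in every line.

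Other genes of the route were read from lists. Of the 6 class I-like heavy chains measured, 2 rose in each background and 0 fell. They were MR1, which presents vitamin B metabolites to MAIT cells (1.80 in knockdown and 1.40 in control cells), and FCGRT, the neonatal Fc receptor chain that pairs with B2M (0.86 and 0.91). HFE, an iron-regulating chain, changed by 0.08 in knockdown and 0.23 in control cells and passed in neither.

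Of 13 peptide trimming and loading partners measured, 5 rose and 3 fell in knockdown cells, and 2 rose and 3 fell in control cells. Over all genes, 10.1% rose and 14.7% fell in knockdown cells, and 15.2% rose and 20.9% fell in control cells. The control counts are near those shares and are no result about this list. TAPBPL, the tapasin homologue that edits peptides, rose by 1.67 in knockdown and 1.15 in control cells. SPPL2A, an intramembrane protease placed in this list, rose by 1.19 in knockdown and 0.99 in control cells. Its part in class I loading was not tested. The cytosolic peptidases BLMH and THOP1 fell, by 0.74 and 0.40 in knockdown cells and by 1.07 and 0.33 in control cells. ERAP1 and ERAP2, the aminopeptidases that trim peptides in the endoplasmic reticulum, are named after their values were seen. They rose by 0.98 and 1.46 in knockdown cells (adjusted p = 0.0117 and 0.00801), while their changes of 0.38 and 0.86 in control cells did not pass (adjusted p = 0.232 and 0.0649). The control count that rose was 4 without untreated scrambled replicate 2. In knockdown cells the count that rose was 3 without untreated shRNA2, and the count that fell was 1 without any 1 of the knockdown arrays other than treated shRNA1 replicate 2.

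Among regulators upstream of class I genes, 11 of 25 measured rose in each background, and 2 fell in knockdown and 1 in control cells. The count that fell in knockdown cells was 1 without untreated shRNA2, treated shRNA2 or treated shRNA1 replicate 1, and that in control cells was 2 without untreated scrambled replicate 2, untreated shRNA2, treated wild type or treated shRNA1 replicate 2. IRF9, the DNA-binding part of the complex that binds the ISRE, rose by 2.32 in knockdown cells (adjusted p = 0.000133) and by 2.17 in control cells (adjusted p = 8.2e-05). JAK2, an interferon-gamma receptor kinase, rose by 1.53 in knockdown and 1.82 in control cells, and REL, an NF-kB subunit, by 1.21 and 1.16. NFYB, a subunit of the CCAAT-binding factor, fell by 0.64 in knockdown and by 1.07 in control cells. IRF1, an interferon-induced activator of several of the 10 genes, rose by 1.87 in knockdown cells (adjusted p = 0.00739) and changed by 1.14 in control cells (adjusted p = 0.0552). By line, the IRF1 change was 1.72, 1.92 and 1.98 in knockdown cells, against 2.11 in scrambled replicate 1, -0.42 in scrambled replicate 2 and 1.73 in wild type. RFX5, part of the complex that NLRC5 works through, changed by 0.33 in knockdown and 0.10 in control cells and passed in neither.

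Of 11 class II and loading genes measured, 2 rose in knockdown cells and 4 in control cells, and 0 fell. CTSS, the protease that removes the invariant chain, rose by 1.70 in knockdown and 1.73 in control cells, and HLA-DOB by 0.93 and 0.73. HLA-DPA1 and HLA-DQB1, chains of class II molecules, changed by 0.21 and 0.10 in knockdown cells without passing and rose by 0.47 and 0.46 in control cells. The knockdown count was 4 without treated shRNA1 replicate 1, and 1 with averaged probe sets or with scrambled and shRNA1 arrays only. In knockdown cells 1 fell with quantile normalization or with trended robust eBayes. The control count was 2 with the lowest 33.3% of genes by mean dropped, 2 with scrambled and shRNA1 arrays only, and 7 with array weights. The median change of this list was 0.16 in knockdown and 0.25 in control cells.

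**Figure D4:**
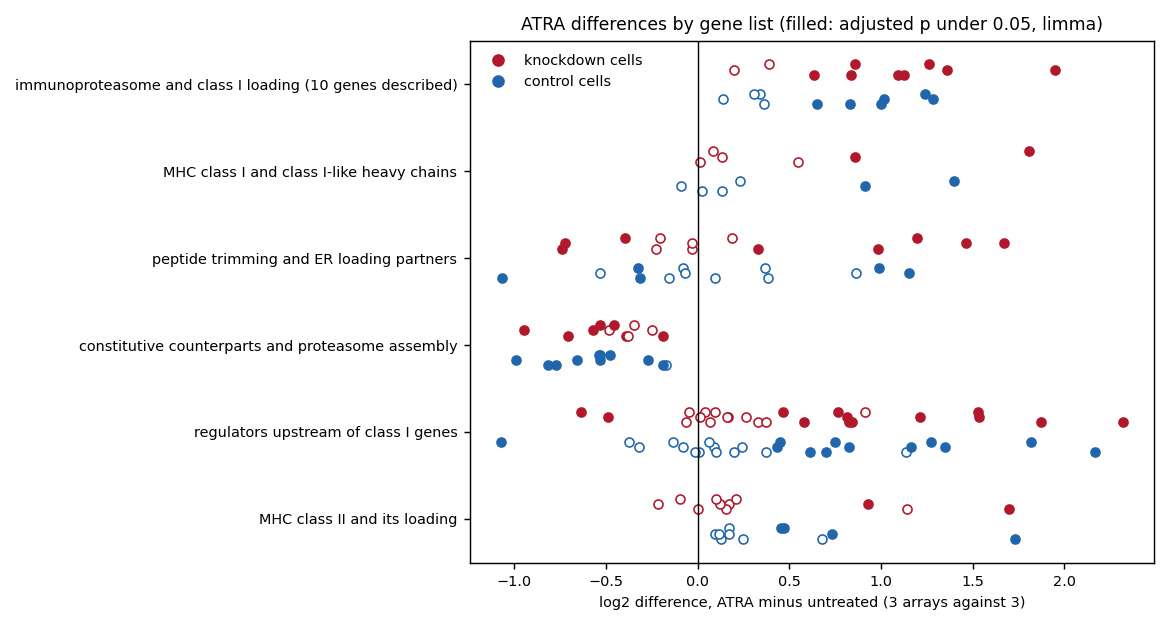
Change after ATRA (log2, treated minus untreated, x axis) of every measured gene of each list, red for knockdown and blue for control cells, filled where limma's adjusted p was under 0.05 and open otherwise. All 10 members lie to the right of 0, and all 11 constitutive and assembly genes to the left, in both backgrounds.

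TAP2, PSMB8, TAP1 and PSMB9 stand next to each other on chromosome 6, between HLA-DOB and HLA-DMB in the RefSeq gene order (GRCh38.p14). HLA-DOB rose with them, and on the other side HLA-DMB, with changes of -0.10 in knockdown and 0.17 in control cells, HLA-DMA, with 0.17 and 0.09, and BRD2, with 0.05 and -0.07, passed in neither. Around TAPBP, further along the chromosome, RGL2 rose by 0.52 in knockdown and 0.41 in control cells, ZBTB22 passed in neither, and DAXX fell by 0.48 and by 0.58. The members' rise thus did not extend to all of their neighbours.

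The profile most like the mean of the 10 genes over the 12 arrays, each gene centred on its own mean, was that of TIMP2, a metalloproteinase inhibitor, with a root-mean-square distance of 0.104 on the log2 scale. CMAHP (0.112), WAS (0.116), ATOSB (0.116), TRIM21 (0.121) and OSTF1 (0.122) followed among genes outside the 10. The nearest member was TAPBP, at 0.118, and the farthest were PSMB9, at 0.475, and NLRC5, at 0.380, since PSMB9 moved more than the mean and NLRC5 hardly moved. TRIM21 is the cytosolic antibody receptor, and WAS is an actin regulator of blood cells. All 6 rose in both backgrounds, by 0.74 to 1.09 in knockdown cells and by 0.57 to 0.85 in control cells. They were picked for likeness to a mean profile that itself rises, so their rise follows from the choice and is no separate result.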

How the data were processed

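Total RNA from 6 NB4 samples, each untreated and after ATRA, was measured on 12 Affymetrix arrays. The deposited values are log2 intensities per probe set, and RMA and limma are named per the submitters' processing notes, with versions not given in the sources used here. The arrays' number limits the precision. Of 32321 probe sets, 19158 were annotated to 1 gene, 1388 to several and 11775 were not listed. A gene with several probe sets (637 genes) kept the one with the highest mean.

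limma 3.58.1 in R 4.3.3 was fitted to all 18404 genes with 4 group means and 8 residual degrees of freedom, and p-values were adjusted by Benjamini-Hochberg over all genes at a threshold of 0.05. An exact permutation test of 3 against 3 cannot go below p = 0.1, so none is given. The lines are nested in knockdown or control, and the model has no line term. Alternatives left out each array in turn, kept only scrambled and shRNA1 arrays, added a replicate block, dropped the lowest 33.3% of genes by mean, applied quantile normalization, array weights or a trended robust eBayes, averaged probe sets, and left out scrambled replicate 2 in both states. The model took no pairing from the labels. The correlation of deviations was over 0.1 for 4 of 6 own pairs, where it was also the highest. It was below 0 for wild type (-0.17) and scrambled replicate 1 (-0.11). Wild type and shRNA2 had 1 array per state, so their pairs do not rest on a number. Changes per line join untreated and treated arrays of 1 label and carry no test.

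All 10 members were named, with, of each list, up to 4 genes with the smallest p in control cells, PSMB5, PSMB6, PSMB7, PSME3, IRF1 and RFX5, and the 6 genes nearest the mean member profile. Some listed genes are not reported here. The members and lists were chosen with earlier results of these data known. Promoter windows and sequences are RefSeq's (GRCh38.p14).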

Additional observations from a re-analysis of the deposited data

How the results depend on the processing

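The counts of members called moved by over 1.5 times under 1 of 20 alternatives: with scrambled and shRNA1 arrays only, 4 were called in knockdown cells against 8, and 3 in control cells against 6. That setting holds fewer arrays, and over all genes it called 946 higher and 1415 lower in knockdown cells (1854 and 2714 with all arrays) and 763 and 2218 in control cells (2800 and 3844). Leaving out 1 array gave 6 to 9 members in knockdown cells, 5 to 8 in control cells and 0 to 0 in the other 3 comparisons. The replicate block left 8 members called in knockdown and 6 in control cells; over all genes it gave 1820 higher and 2578 lower in knockdown cells and 2300 and 3761 in control cells, and it changed no member's call. Of the regulators, 1 fell in knockdown cells with the block (2), and 3 fell in control cells with array weights (1). The own-pair correlation was highest for 4 of 6 lines. Over all genes, calls higher in control cells were 1549 and 1783 without wild type untreated or treated and 4450 with array weights. Between knockdown and control cells after ATRA, 10 genes were higher and 1 lower; leaving out 1 array gave 0 to 420 and 0 to 281, quantile normalization 138 and 142, and array weights 383 and 313. Of the constitutive list, 11 fell in knockdown cells with array weights and 4 with scrambled and shRNA1 arrays only (7), and in control cells 5 with quantile normalization and 3 with scrambled and shRNA1 arrays only (10). With array weights PSMB8, PSMB10 and PSME1 passed in control cells (adjusted p = 0.0355, 0.00539 and 0.0112), and PSME1 also passed with quantile normalization (0.0445 in knockdown and 0.0495 in control cells). Quantile normalization moved the median change of all genes by -0.04 in control cells.

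Directions changed only in comparisons where no member was called; the cause was not tested. Between untreated knockdown and control cells, leaving out 1 array gave -0.30 to 0.065 for PSME1, -0.37 to 0.082 for PSME2 and -0.45 to 0.018 for TAP2, and leaving out scrambled replicate 2 in both states gave 0.065, 0.082 and 0.018. After ATRA, leaving out 1 array gave -0.16 to 0.057 for PSMB8, -0.065 to 0.083 for PSMB10, -0.12 to 0.057 for PSME1, -0.33 to 0.18 for TAP1, -0.099 to 0.0091 for TAPBP and -0.24 to 0.024 for NLRC5, and the mean over probe sets gave 0.019 for TAPBP. For the difference between the responses it gave -0.12 to 0.25 for PSME1, -0.25 to 0.20 for PSME2, -0.22 to 0.25 for TAP2, -0.029 to 0.27 for B2M and -0.094 to 0.17 for NLRC5. Array weights gave -0.0037 for PSME1, -0.050 for TAP2, -0.044 for B2M and -0.094 for NLRC5. With scrambled and shRNA1 arrays only, TAP2 was at -0.17, B2M at -0.038 and NLRC5 at -0.062. Quantile normalization gave -0.14 for TAP2 and -0.11 for NLRC5, and the mean over probe sets -0.042 for TAP2. Without scrambled replicate 2 in both states, PSME1 was at -0.14, TAP2 at -0.18 and NLRC5 at -0.14.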
